A study of Pyrus communis with 12 samples.

Results

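Red skin in the pear sport ‘Red Clapp Favorite’ (‘RCF’) becomes visible at about 5 days after full bloom (DAFB), and the comparison described here sets the skin transcriptome of ‘RCF’ at that stage, ‘RCF2’, against that of its green parent ‘Clapp Favorite’, ‘CF2’. It covers 6 of the 12 skin libraries of the study, 3 replicates of each cultivar at 5 DAFB. The other 6, ‘RCF1’ and ‘CF1’, were taken from both cultivars at 2 DAFB, when the fruits were still alike in colour. ‘RCF’ arose as a bud sport, a branch mutation that was kept by grafting, so the comparison is of 1 mutant clone with the clone it came from. All fruits came from 6-year-old trees of 1 orchard, grafted onto Pyrus betulaefolia rootstocks, and each replicate pooled the skins of many fruits. Nothing in the labels says whether the replicates came from separate trees, so the P-values given measure the spread between these pools. Expression is given as FPKM as the authors computed it, that is, as fragments relative to gene length and to the total mapped in a library. Of 42760 genes, the 25707 that reached 1 FPKM in 3 or more of the 12 libraries were tested on log2(FPKM + 1) with limma. A gene is said to be higher or lower in ‘RCF2’ when its Benjamini-Hochberg adjusted P was under 0.05 and its log2 fold change was at least 1 in size.

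Anthocyanins are red flavonoid pigments that are built in the cytosol and stored in the vacuole. Chalcone synthase (CHS) opens the pathway, flavanone 3-hydroxylase (F3H) and anthocyanidin synthase (ANS) act further along it, and a glutathione S-transferase of the GSTF12 type, known in Arabidopsis as TT19, carries the pigment toward the vacuole. R2R3-MYB factors such as MYB10 and MYB114 are known in pear and apple as activators of these genes. Young fruit skin is also a growing green tissue, in which cell-wall enzymes, auxin-responsive genes, photosynthesis and nitrate assimilation are all active.

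The replicates lay close together, with Pearson’s r of 0.989 to 0.991 between the ‘RCF2’ libraries and 0.987 to 0.988 between the ‘CF2’ libraries over the log2 values. Comparing the smallest steps of low values between libraries put the relative depth of the ‘RCF2’ libraries at 0.755, 0.705 and 0.832 of that of ‘CF2’ replicate 1, and that of the other ‘CF2’ libraries at 1.003 and 0.963. Values below about 1 FPKM therefore rest on fewer fragments in ‘RCF2’. The median log2 fold change over all tested genes was -0.01.

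At 5 DAFB 274 genes passed both thresholds, which is 1.07% of the genes tested. Of these, 188 were higher in ‘RCF2’ (0.731% of the genes tested) and 86 were lower (0.335%). The higher genes had a median log2 fold change of 1.27, with median levels of 21.8 FPKM in ‘RCF2’ and 7.58 FPKM in ‘CF2’. The lower genes had a median log2 fold change of -1.16, with median levels of 5.10 FPKM in ‘RCF2’ and 14.3 FPKM in ‘CF2’. Large differences were few on the log2(FPKM + 1) scale, with 22 genes at a log2 fold change of at least 2 and 3 at -2 or less. Adding 1 to FPKM shrinks the log2 fold changes of genes with low values, so some large FPKM ratios fall short of these limits. In all 274 genes the 3 ‘RCF2’ values lay wholly above or below the 3 ‘CF2’ values, as they did in 29.9% of the genes tested. With 3 libraries a group, an exact permutation test on 1 gene has 0.1 as its smallest two-sided P. ‘CF2’ replicate 3 was the highest of the ‘CF2’ libraries in 145 of the 188 higher genes (77.1%, against 35.2% of all genes tested), and without it 288 genes were higher. ‘CF2’ replicate 1 was the highest of its group in 54 of the 86 lower genes (62.8%, against 31.7%).

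How firmly the groups of genes described below were called differed. In 1 fit of all 12 libraries, which takes in the wider spread of ‘CF1’, the calls held for 10 of 12 wound-induced genes. They also held for 3 of 3 genes of nitrate and nitrite reduction, 3 of 3 LOB genes and 3 of 3 genes of fermentation and hypoxia-induced families. Of the phosphate-induced protein 1 genes 4 of 6 calls held, of the NB-ARC genes 4 of 7, and of the plain leucine-rich repeat genes 4 of 9. The calls held for 3 of 12 AP2/ERF genes, 2 of 7 SAUR genes, 0 of 4 expansins, 0 of 5 pectin genes and 0 of 3 NAC genes. In these groups adjusted P of that limma fit reached 0.595, 0.595, 0.806, 0.552 and 0.501. Leaving out the filter on low FPKM raised the number of genes tested to 34994. There 10 of 12 wound-induced, 3 of 3 nitrate, 2 of 3 LOB and 3 of 6 phosphate-induced protein 1 calls held. So did 0 of 2 xyloglucan, 1 of 7 SAUR, 2 of 5 pectin, 3 of 4 expansin and 3 of 9 plain leucine-rich repeat calls.

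**Figure D1:**
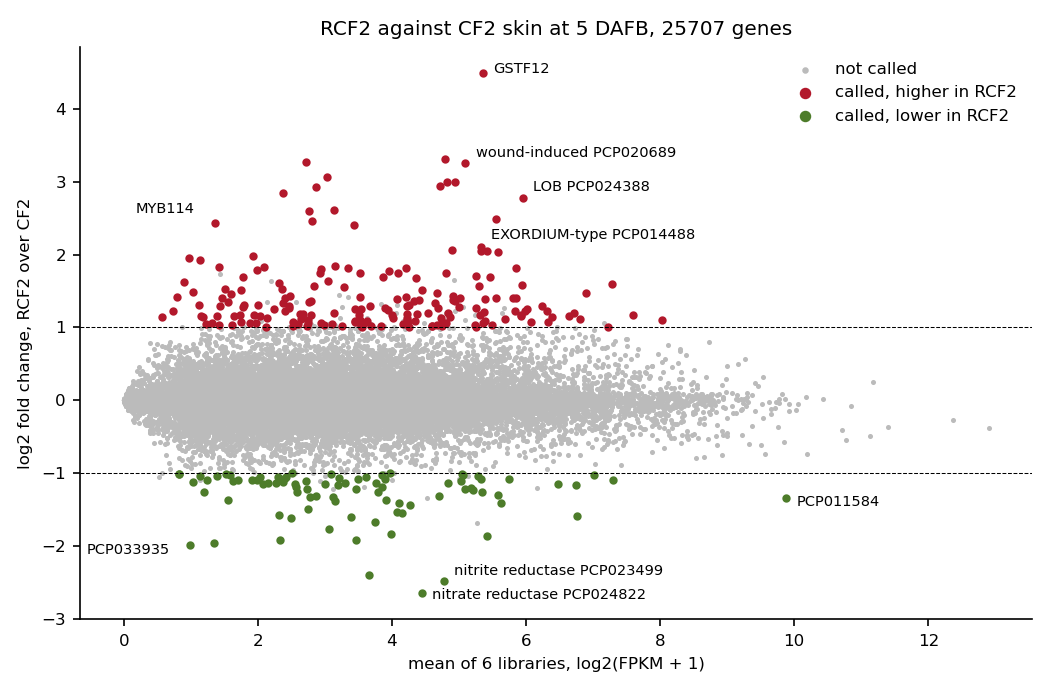
Log2 fold change of ‘RCF2’ over ‘CF2’ (vertical axis) against the mean log2(FPKM + 1) of the 6 libraries (horizontal axis) for the 25707 tested genes, 1 point a gene. The 188 genes higher in ‘RCF2’ are red, the 86 lower genes are green, the dashed lines mark log2 fold changes of 1 and -1, and GSTF12 stands at the top at 4.49.

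On the log2(FPKM + 1) scale, the red pigment pathway was represented by 1 very large difference and many small ones. GSTF12 (PCP025171) stood at 234, 177 and 174 FPKM in ‘RCF2’, against 6.75, 7.76 and 8.48 FPKM in ‘CF2’, a log2 fold change of 4.49 ± 0.13 (SE, adjusted P = 3.1e-05). Its log2 fold change was the largest of the comparison, and it was the only one among 44 tested glutathione S-transferases to pass the test. Adding 1 to FPKM shrinks the log2 fold changes of genes with low values. A gene near 0 in 1 group, such as MYB114, can therefore have a larger FPKM ratio at a smaller log2 fold change. MYB114 (PCP008283) stood at 6.31, 3.63 and 5.29 FPKM in ‘RCF2’, against 0.197, 0.0534 and 0.0832 FPKM in ‘CF2’ (log2 fold change 2.43 ± 0.17, adjusted P = 0.0011). Every red library stood far above every green one in both genes, and neither call depended on any single library. The coding sequences of these 2 genes open as follows, as given by the study’s cloning primers, with the start codon in capitals. They are shown because they identify the gene with the largest log2 fold change and the pigment-pathway MYB factor that passed the test.
PcGSTF12: ATGgttgtcaaagtatatggtcc
PcMYB114: ATGgaggatagtaatttgctggg

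The genes that build the pigment differed much less. ANS (PCP027029) stood at 292, 236 and 248 FPKM in ‘RCF2’ and 131, 202 and 149 FPKM in ‘CF2’, a log2 fold change of 0.70 ± 0.16 (adjusted P = 0.042) that stayed under the fold threshold. CHS (PCP023048) had a log2 fold change of 0.76 ± 0.20 (adjusted P = 0.063) and F3H (PCP013732) one of 0.43 ± 0.13 (adjusted P = 0.085), and neither passed the test. MYB10 (PCP035580) was low in both cultivars, at 1.55 to 1.82 FPKM in ‘RCF2’ and 1.98 to 3.36 FPKM in ‘CF2’ (adjusted P = 0.18). Of the 20 anthocyanin genes that the study grouped as a core set, 19 were tested. Of these, 18 had a log2 fold change above 0 (47.6% of all genes tested did), and their median was 0.69. In ‘RCF2’ 3 were higher (15.8% called, against 1.07% of all genes tested). The study chose that set on these same samples, so neither its direction nor its share called is independent evidence. The third gene of the set to pass was bZIP1 (PCP003743), at 8.72, 10.2 and 7.72 FPKM in ‘RCF2’ against 2.13, 4.25 and 4.86 FPKM in ‘CF2’ (log2 fold change 1.10 ± 0.23, adjusted P = 0.033). Its call was lost in 5 of the 6 fits that left out 1 library, every one except that without ‘CF2’ replicate 3, with log2 fold changes of 0.83 to 1.20 and adjusted P up to 0.097. None of the 106 tested UDP-sugar glycosyltransferases, a family whose members attach sugars to anthocyanidins, passed the limma test. An unadjusted P under 0.05 was found for 26 of them, and for 24.4% of all genes tested. None of 46 MATE transporters or 18 O-methyltransferases passed either, with 12 and 3 at an unadjusted P under 0.05.

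A family of small proteins known only as wound-induced had the largest median difference of the 15 domain families with at least 3 called genes. Its name comes from transcripts that accumulate after wounding, and what the proteins do is largely unknown. The table holds 17 genes of the family, 15 were tested, and 11 of the 15 were higher in ‘RCF2’, with a family median of 2.48 against -0.01 over all genes. PCP020689 stood at 110, 98.9 and 105 FPKM in ‘RCF2’, against 11.6, 6.70 and 12.9 FPKM in ‘CF2’ (log2 fold change 3.25 ± 0.21, adjusted P = 0.00091). PCP007379 stood at 99.5, 77.8 and 80.2 FPKM in ‘RCF2’, against 12.5, 5.2 and 14.2 FPKM in ‘CF2’ (2.99 ± 0.32). PCP016596, the most abundant member in both cultivars, stood at 118, 109 and 104 FPKM in ‘RCF2’, against 25.1, 12.4 and 21.5 FPKM in ‘CF2’ (2.48 ± 0.22). In each of these 3 genes the lowest red library stood several-fold above the highest green one. PCP042398 (3.28), PCP042085 (3.07) and PCP014641 (2.60) followed the same pattern at levels of 12 to 26.4 FPKM in ‘RCF2’ and 0.511 to 2.00 FPKM in ‘CF2’.

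The members are partly neighbours. PCP016594, PCP016595, PCP016596 and PCP016597 lie close together on the plus strand of scaffold00271 between positions 190596 and 207400. All 4 were higher in ‘RCF2’, as were PCP014641 and PCP014642, close together on scaffold00070. Their levels spanned almost the whole range of the family, as PCP016595 stood at 89.8, 75.6 and 72.7 FPKM in ‘RCF2’ against 10.6, 6.64 and 10.4 FPKM in ‘CF2’. Its neighbour PCP016594 was listed at 0 in every ‘CF2’ library and at 2.13, 0.767 and 0.974 FPKM in ‘RCF2’. Its call was lost without ‘CF2’ replicate 1 (adjusted P = 0.064), ‘CF2’ replicate 2 (0.058) or ‘RCF2’ replicate 1 (log2 fold change 0.90), and that of PCP016597 (1.62) was lost without ‘CF2’ replicate 1 (adjusted P = 0.056) or ‘RCF2’ replicate 3 (0.054). How reads that match several copies were counted is not given in the sources used here, so the split of signal between close copies is uncertain. Not every member moved. PCP041087, PCP035411, PCP041539 and PCP042084 had log2 fold changes of 0.46, -0.13, -0.80 and -1.03 and did not pass the test. In the gene order PCP041087 is listed between PCP016597 and PCP016595, so not every family gene listed there moved. PCP024904, of the differently named Wun1 type of wound-induced protein, was lower in ‘RCF2’, at 19.6, 23.3 and 25.7 FPKM against 50.5, 52.4 and 59.2 FPKM in ‘CF2’ (log2 fold change -1.21 ± 0.11, adjusted P = 0.0033).

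**Figure D2:**
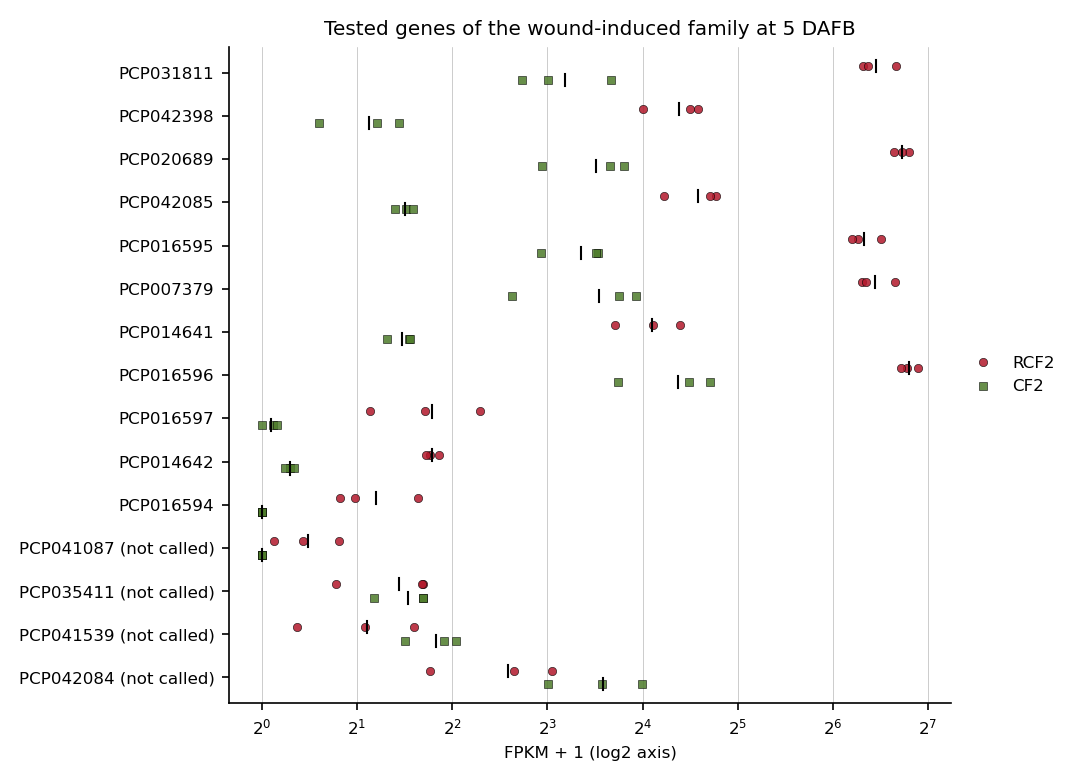
FPKM + 1 on a log2 axis for the 15 tested genes of the wound-induced family, 1 row a gene, with red circles for the 3 ‘RCF2’ libraries, green squares for the 3 ‘CF2’ libraries and a black tick at each group mean. In the upper 11 rows the red and green points do not overlap, and the 4 genes that did not pass the test stand at the bottom.

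Genes of the cell wall and of growth fell into one set that was higher and another that was lower in red skin. The phosphate-induced protein 1 family, whose Arabidopsis member EXORDIUM is an extracellular protein that promotes cell growth in response to brassinosteroid, was among the higher ones. Of its 18 genes 14 were tested, 6 were higher in ‘RCF2’ and none passed the test in the other direction. The share called was 42.9%, against 1.07% of all genes tested, and the median was 0.79. PCP014488 stood at 84.4, 79.5 and 81.8 FPKM in ‘RCF2’, against 14.2, 14.7 and 29.4 FPKM in ‘CF2’ (log2 fold change 2.1 ± 0.25, adjusted P = 0.0069). PCP006051 (2.05) and PCP006052 (1.60) lie next to each other on scaffold01564, as PCP008631 (1.08) and PCP008633 (1.26) nearly do on scaffold00326. PCP006052 was the most abundant of the 6, at 256, 303 and 255 FPKM in ‘RCF2’ and 71.8, 81.6 and 119 FPKM in ‘CF2’. In 6 of 6 genes ‘CF2’ replicate 3 was the highest green library, and still below every red one. The call of PCP008631 was lost without ‘CF2’ replicate 1 (log2 fold change 0.92) or ‘RCF2’ replicate 1 (0.97). The most abundant member of the family, PCP019982, stood at 272 to 310 FPKM in ‘RCF2’ and 345 to 371 FPKM in ‘CF2’ (log2 fold change -0.29 ± 0.08, adjusted P = 0.061).

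Xyloglucan endotransglucosylase/hydrolases cut and rejoin the xyloglucan chains that tie cellulose together. Of 18 tested xyloglucan genes 2 were higher in ‘RCF2’ (11.1% called, against 1.07% of all genes tested). PCP025350 stood at 64.2, 64.1 and 52.1 FPKM in ‘RCF2’, against 9.31, 10.9 and 23.9 FPKM in ‘CF2’ (log2 fold change 2.07 ± 0.31, adjusted P = 0.013), and the call was lost without ‘RCF2’ replicate 1 (2.02, adjusted P = 0.053). PCP026795 (1.84 ± 0.31, adjusted P = 0.018) was called in 3 of the 6 fits that left out 1 library, and lost without ‘CF2’ replicate 2 (adjusted P = 0.053), ‘RCF2’ replicate 1 (0.064) or ‘RCF2’ replicate 2 (0.058). Here too ‘CF2’ replicate 3 was the highest green library in both genes.

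Expansins, which loosen the wall without cutting it, mostly stood lower in red skin. Of 29 tested genes with the expansin-type domain 20 were below 0 (52.3% of all genes tested were). In ‘RCF2’ 3 were lower and 1 was higher (13.8% called, against 1.07% of all genes tested). The sum over all 55 genes of the list was 1012 to 1055 FPKM in ‘RCF2’ and 1326 to 1415 FPKM in ‘CF2’. PCP003346 stood at 69.4, 52.9 and 64.3 FPKM in ‘RCF2’, against 219, 206 and 147 FPKM in ‘CF2’ (log2 fold change -1.59 ± 0.16, adjusted P = 0.0052). PCP010053 (-1.76) and the expansin-A6-type PCP023195 (-1.22) were lower in all fits that left out 1 library. PCP010882 went the other way (1.70 ± 0.28, adjusted P = 0.017), but passed the test in only 2 of those 6 fits, those without ‘CF2’ replicate 3 or ‘RCF2’ replicate 3, with adjusted P up to 0.059. The endoglucanase 6-type gene PCP044447, an enzyme of cellulose trimming, stood at 69.3, 70.5 and 72.0 FPKM in ‘RCF2’ against 164, 175 and 140 FPKM in ‘CF2’ (-1.16 ± 0.09, adjusted P = 0.0019).

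Pectin is the gel between the cellulose fibres. Of 102 tested genes with domains of pectin enzymes or of pectinesterase inhibitors, 5 were lower in ‘RCF2’ and none was higher (4.9% called, against 1.07% of all genes tested). Among them were 3 pectate lyase-type genes, which cleave pectin, of 18 tested. PCP018409 stood at 10.3, 9.73 and 12.2 FPKM in ‘RCF2’, against 34.8, 38.9 and 21.1 FPKM in ‘CF2’ (log2 fold change -1.43 ± 0.21, adjusted P = 0.013), with the call lost without ‘RCF2’ replicate 1 (-1.41, adjusted P = 0.053). PCP023641 (-1.26) was lower in every fit that left out 1 library, and PCP024217 (-1.04) fell short of the fold threshold without ‘CF2’ replicate 1 (-0.92) or ‘RCF2’ replicate 3 (-0.93). PCP013348 and PCP014232, which complete the 5, carry the pectinesterase inhibitor domain, which does not by itself name an enzyme that acts on pectin. PCP013348 stood at 27.2, 32.0 and 29.0 FPKM in ‘RCF2’ and 94.5, 78.6 and 68.5 FPKM in ‘CF2’ (-1.42 ± 0.12, adjusted P = 0.0027). PCP014232 (-1.11) fell just short of the fold threshold without ‘RCF2’ replicate 2.

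SAUR genes are small, short-lived auxin-responsive transcripts, several of which promote cell expansion. Of 83 genes 29 were tested, 24 of these were below 0 (52.3% of all genes tested were), and the median was -0.33. In ‘RCF2’ 6 were lower and 1 was higher (24.1% called, against 1.07% of all genes tested). PCP037299, annotated as SAUR50, stood at 7.68, 5.71 and 9.13 FPKM in ‘RCF2’, against 34.1, 31.7 and 22.6 FPKM in ‘CF2’ (log2 fold change -1.84 ± 0.19, adjusted P = 0.0053). PCP013311, the most abundant of the 6, stood at 26.4, 16.5 and 22.1 FPKM in ‘RCF2’ and 62.5, 44.6 and 47.5 FPKM in ‘CF2’ (-1.22 ± 0.18). These and PCP040169 (-1.26) were called in all 6 fits that left out 1 library. PCP011836 (-1.33), PCP040578 (-1.08) and PCP011842 (-1.13) were lost in 2, 2 and 5 of those fits, with adjusted P up to 0.087, and the higher gene, PCP002396 (1.35), in 4. Without ‘CF2’ replicate 1 the log2 fold changes of PCP011836 and PCP011842 were -1.17 (adjusted P = 0.054) and -0.99. The dormancy and auxin-associated family, whose members are known as auxin-repressed transcripts of resting buds, had all 6 of its genes tested and all below 0. PCP037538 stood at 11.1, 5.99 and 12.3 FPKM in ‘RCF2’, against 38.0, 25.7 and 25.7 FPKM in ‘CF2’ (-1.54 ± 0.26, adjusted P = 0.018), and its call was lost without ‘CF2’ replicate 1 (-1.36, adjusted P = 0.056) or ‘RCF2’ replicate 1 (-1.65, adjusted P = 0.053).

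**Figure D3:**
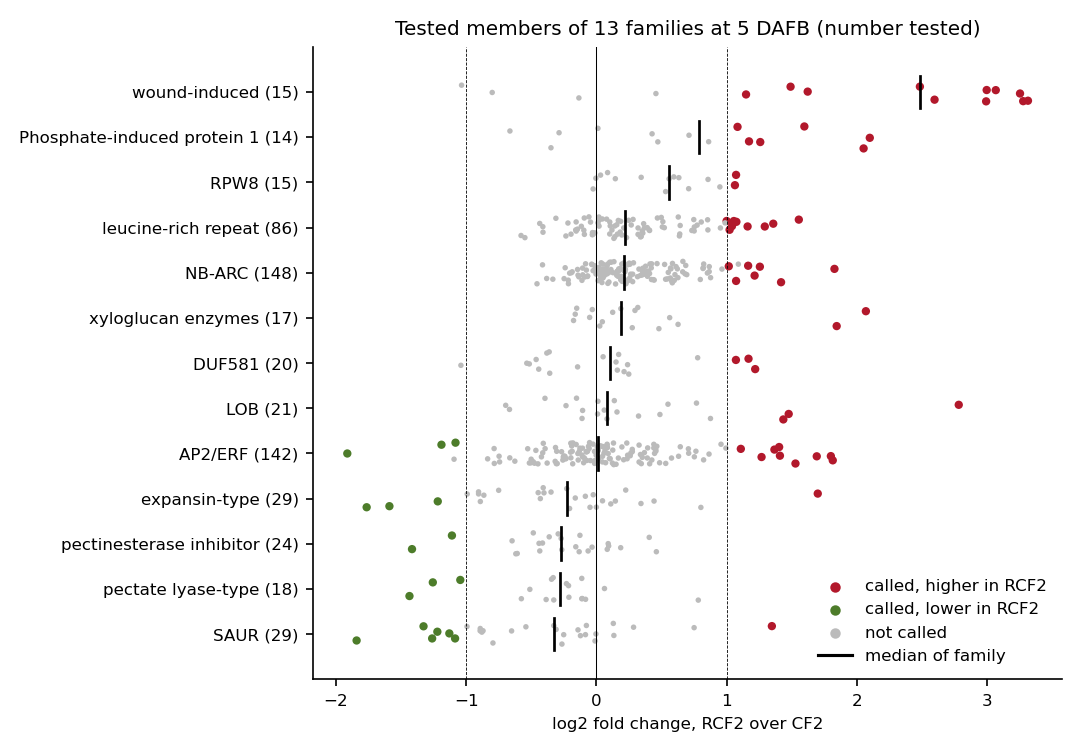
Log2 fold change of ‘RCF2’ over ‘CF2’ for the tested genes of 13 domain families, 1 row a family with its number of tested genes in brackets and 1 point a gene, with called genes in red or green, other genes in grey and a black tick at the family median. The wound-induced family lies far to the right with a median of 2.48, and the SAUR family is shifted to the left with a median of -0.33.

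Nitrate is reduced to nitrite by nitrate reductase in the cytosol and to ammonium by nitrite reductase in the plastid, and the genes of both steps were among the most reduced in red skin. All 3 tested genes of these steps were lower in ‘RCF2’, and the summed level of the 3 was 33.0 to 50.3 FPKM in ‘RCF2’ and 190.2 to 211 FPKM in ‘CF2’. The nitrate reductase PCP024822 stood at 6.26, 10.3 and 7.07 FPKM in ‘RCF2’, against 54.3, 58.2 and 48.7 FPKM in ‘CF2’ (log2 fold change -2.65 ± 0.16, adjusted P = 0.00088). The second gene with the same molybdopterin-binding domain, PCP020355, stood at 19.8, 23.5 and 21.2 FPKM in ‘RCF2’ and 80.8, 88.4 and 72.9 FPKM in ‘CF2’ (-1.86 ± 0.09). The nitrite reductase-type gene PCP023499 stood at 7.02, 16.5 and 10.1 FPKM in ‘RCF2’ and 58.4, 64.6 and 68.6 FPKM in ‘CF2’ (-2.48 ± 0.25). These 3 calls held without any single library. One of 3 tested haemoglobins moved with them. PCP002967 belongs to a group of plant haemoglobins that are best known for removing nitric oxide, and stood at 3.64, 5.10 and 4.92 FPKM in ‘RCF2’, against 33.7, 22.8 and 29.1 FPKM in ‘CF2’ (-2.40 ± 0.16, adjusted P = 0.001).

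Further genes, only some of them tied to nitrite, were looked up after their values were seen. Both tested HPP-domain genes, a family with a nitrite transporter of the plastid envelope in Arabidopsis, were lower. PCP004010 stood at 7.89, 8.83 and 8.50 FPKM in ‘RCF2’ and at 23.3, 23.2 and 23.2 FPKM in ‘CF2’ (-1.37 ± 0.07, adjusted P = 0.00041), while PCP033099 (-1.01) fell short of the fold threshold in 3 of the 6 fits that left out 1 library, those without ‘CF2’ replicate 1 (-0.997), ‘CF2’ replicate 3 (-0.994) or ‘RCF2’ replicate 2 (-0.97). PCP042320, 1 of 3 tested tetrapyrrole methylases, a domain also found in the enzyme that opens the route to sirohaem, the cofactor of nitrite reductase, stood at 8.28, 10.7 and 9.82 FPKM in ‘RCF2’ and 26.1, 26.6 and 28.4 FPKM in ‘CF2’ (-1.41 ± 0.10). PCP012336, 1 of 9 tested glucose-6-phosphate dehydrogenases, had a log2 fold change of -1.08 ± 0.19 (adjusted P = 0.019) that passed in only 2 of the fits that left out 1 library, those without ‘CF2’ replicate 3 or ‘RCF2’ replicate 2. For the steps that handle ammonium, none of 8 tested glutamine synthetases passed the limma test (3 had an unadjusted P under 0.05). Their sum was 639 to 719 FPKM in ‘RCF2’ and 760 to 807 FPKM in ‘CF2’. None of 5 tested ammonium transporters passed it (3 with an unadjusted P under 0.05). The same held for 4 tested genes with the RWP-RK domain, looked up with them (2 with an unadjusted P under 0.05).

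LOB-domain factors are plant transcription factors first known from the boundaries of lateral organs, and LBD37, LBD38 and LBD39 of Arabidopsis repress both anthocyanin and nitrate-responsive genes. Of 57 LOB genes 21 were tested and 3 were higher in ‘RCF2’ (14.3% of those tested, against 1.07% called of all genes tested). PCP024388 varied little within either group, at 163, 161 and 161 FPKM in ‘RCF2’, against 25.3, 21.6 and 21.2 FPKM in ‘CF2’ (log2 fold change 2.78 ± 0.08, adjusted P = 3.1e-05). PCP028626 stood at 208, 190 and 192 FPKM in ‘RCF2’ and 77.8, 72.2 and 61.0 FPKM in ‘CF2’ (1.48 ± 0.10). The member that is annotated by its likeness to LBD38, PCP008830, stood at 9.10, 8.45 and 7.12 FPKM in ‘RCF2’ and 1.23, 3.29 and 3.09 FPKM in ‘CF2’ (1.44 ± 0.25, adjusted P = 0.019), and its call was lost without any 1 of the ‘RCF2’ libraries (adjusted P of 0.068, 0.059 and 0.051). PCP024388 and PCP028626 carry no such annotation in the sources used here.

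**Figure D4:**
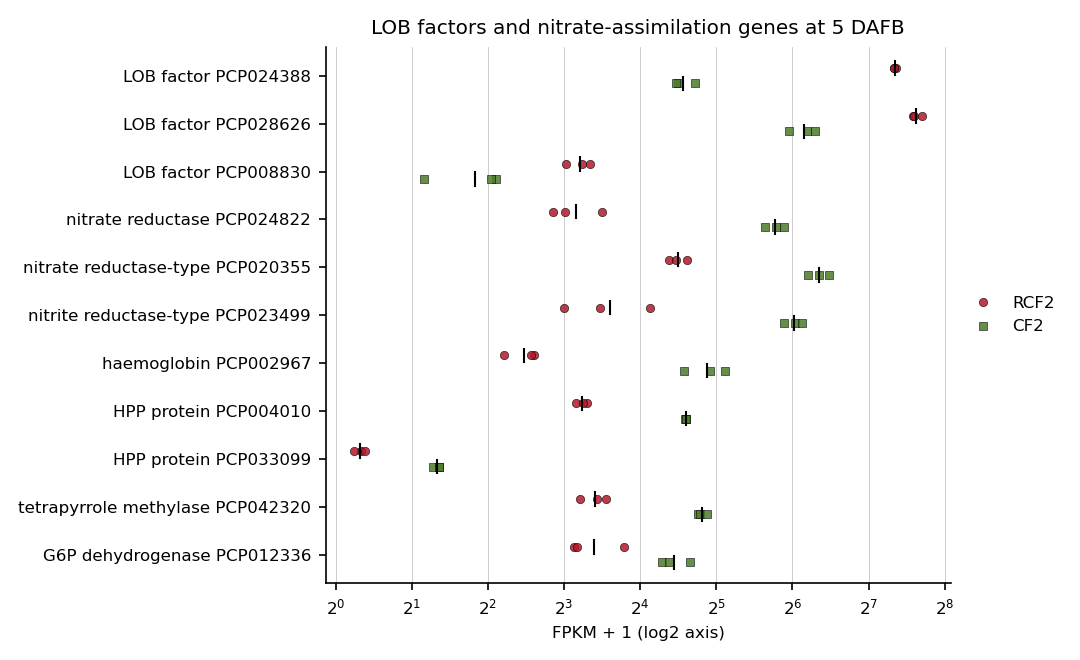
FPKM + 1 on a log2 axis for the 3 called LOB-domain genes and for genes of nitrate and nitrite reduction, haemoglobin, HPP proteins, tetrapyrrole methylase and glucose-6-phosphate dehydrogenase, with red circles for the 3 ‘RCF2’ libraries, green squares for the 3 ‘CF2’ libraries and a black tick at each group mean. Red points lie to the right in the upper 3 rows and to the left in all rows below them, and the groups overlap in none.

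Families that hold genes of glycolysis, fermentation and low-oxygen responses gave a few large differences. The list, taken by domain name, held phosphofructokinases, pyruvate decarboxylases, alcohol dehydrogenases and hypoxia-induced proteins. Of its 31 tested genes 3 were higher in ‘RCF2’ and none was lower (9.68% called, against 1.07% of all genes tested). Their median was 0.05, with 19 above 0 (47.6% of all genes tested were). Whether these genes respond to low oxygen in pear skin was not tested. The phosphofructokinase PCP045155, an enzyme of glycolysis, stood at 89.5, 94.4 and 73.9 FPKM in ‘RCF2’, against 18.4, 18.7 and 23.1 FPKM in ‘CF2’ (log2 fold change 2.04 ± 0.12, adjusted P = 0.00075). The hypoxia-induced protein gene PCP032922 was listed at 0 in all 3 ‘CF2’ libraries and stood at 3.45, 1.90 and 3.45 FPKM in ‘RCF2’ (adjusted P = 0.003). The pyruvate decarboxylase PCP025189, which opens ethanol fermentation, stood at 60.7, 50.9 and 49.2 FPKM in ‘RCF2’ and 27.1, 27.6 and 22.1 FPKM in ‘CF2’ (1.04 ± 0.11), and fell short of the fold threshold without ‘CF2’ replicate 3 (0.94) or ‘RCF2’ replicate 1 (0.95). Chosen after its values were seen, the early nodulin 93-type gene PCP011372 stood at 20.8, 13.3 and 13.3 FPKM in ‘RCF2’, against 1.96, 2.51 and 1.60 FPKM in ‘CF2’ (2.46 ± 0.19).

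Among transcription factors, the AP2/ERF class, which holds the ethylene-response and cold-response factors, had the most members that passed. Of 143 tested, 9 were higher and 3 were lower in ‘RCF2’ (8.39% called, against 1.07% of all genes tested), and the median was 0.01. PCP013805 stood at 36.0, 35.6 and 29.7 FPKM in ‘RCF2’, against 6.58, 8.01 and 13 FPKM in ‘CF2’ (log2 fold change 1.81 ± 0.21, adjusted P = 0.0069), and its neighbour on scaffold00909, PCP013803, had a log2 fold change of 1.69 ± 0.31 (adjusted P = 0.023) that was lost without ‘CF2’ replicate 1 (adjusted P = 0.072), ‘CF2’ replicate 2 (0.063) or ‘RCF2’ replicate 1 (0.070). PCP026968 stood at 98.8, 85.8 and 93.5 FPKM in ‘RCF2’ and 38.8, 31.6 and 33.2 FPKM in ‘CF2’ (1.40 ± 0.09). PCP004448 (1.41) and PCP001822 (1.27) were likewise higher whichever library was left out. The most reduced was PCP044584, annotated as RAP2-4, at 1.55, 1.93 and 1.33 FPKM in ‘RCF2’, against 9.34, 8.84 and 8.16 FPKM in ‘CF2’ (-1.91 ± 0.11, adjusted P = 0.00074). PCP032928 stood at 37.2, 33.2 and 37.0 FPKM in ‘RCF2’ and 77.1, 72.3 and 81.1 FPKM in ‘CF2’ (-1.08 ± 0.07).

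Other classes gave few called genes. Of 227 tested MYB genes 2 were higher and 1 was lower (1.32% called, near the 1.07% of all genes tested). Beside MYB114 these were PCP003446, annotated as MYB73, a factor of stress responses in Arabidopsis, at 103, 105 and 107 FPKM in ‘RCF2’ and 27.2, 32.0 and 46.3 FPKM in ‘CF2’ (log2 fold change 1.59 ± 0.17, adjusted P = 0.0059), and the ODORANT1-type gene PCP019985, named after a petunia regulator of scent, at 1.15, 0.665 and 1.61 FPKM in ‘RCF2’ and 3.61, 3.73 and 3.35 FPKM in ‘CF2’ (-1.11 ± 0.16), whose call was lost without ‘RCF2’ replicate 2 (-0.95). Of 97 NAC genes 2 were lower and 1 was higher (3.09% called). NAC66 (PCP028501), named for a family member linked in Arabidopsis to secondary walls, stood at 4.51, 4.63 and 6.32 FPKM in ‘RCF2’ and 13.2, 12.3 and 12.6 FPKM in ‘CF2’ (-1.17 ± 0.12, adjusted P = 0.0052), and PCP015689 (-1.49) was lower in all 6 fits that left out 1 library. Of 58 tested B-box and CO/COL/TOC1 genes 1 was higher and 2 were lower (5.17% called). The higher one, the B-box gene PCP014647, of a zinc-finger class that acts in light responses, stood at 5.41, 3.47 and 5.42 FPKM in ‘RCF2’ and 0.892, 0.737 and 1.40 FPKM in ‘CF2’ (1.51 ± 0.18). Of 111 tested bHLH, 50 GRAS and 59 WRKY genes 2 each were higher and none was lower (1.8%, 4.0% and 3.39% called). The GATA factor PCP005050, chosen after its values were seen and 1 of 24 tested, stood at 1.33, 2.31 and 2.09 FPKM in ‘RCF2’ and 8.18, 7.50 and 7.09 FPKM in ‘CF2’ (-1.58 ± 0.14). Calls for WRKY40 (PCP031143, 1.36, and PCP039671, 1.27), pathogen-response factors, held in only 1 of the 6 fits that left out 1 library, that without ‘CF2’ replicate 3, and adjusted P reached 0.114 and 0.117 in the others.

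NB-ARC genes code for intracellular receptors that recognise pathogens. Of 148 tested, 120 had a log2 fold change above 0 (47.6% of all genes tested did), and the median was 0.21. In ‘RCF2’ 7 were higher and none was lower (4.73% called, against 1.07% of all genes tested). The summed level of all 270 NB-ARC genes was 1230 to 1301 FPKM in ‘RCF2’ and 775 to 984 FPKM in ‘CF2’, so that the groups did not overlap, and ‘CF2’ replicate 3 gave the highest green value in each of the 4 named here. PCP003632 stood at 23.4, 24.8 and 21.1 FPKM in ‘RCF2’, against 8.55, 9.15 and 11.8 FPKM in ‘CF2’ (log2 fold change 1.17 ± 0.12, adjusted P = 0.0053). PCP010990 (1.21) was also called whichever library was left out, PCP030478 (1.07), the most abundant of the named ones, fell short of the fold threshold without ‘CF2’ replicate 2 (0.97), and PCP001873 (1.83) was lost without ‘CF2’ replicate 1 (adjusted P = 0.051) or ‘RCF2’ replicate 1 (0.055).

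Leucine-rich repeats are the part of many receptors that binds the ligand. Among 86 tested genes of the plain leucine-rich repeat type 9 were higher and none was lower, with a median of 0.22. Among 65 of the typical subtype 4 were higher. The shares called were 10.5% and 6.15%, against 1.07% of all genes tested. Not all repeat types lay above 0, since 33 of 72 tested genes of the N-terminal type 2 were above and 39 below it, with a median of -0.02 and 1 higher gene. PCP028718 stood at 18.4, 17.3 and 12.3 FPKM in ‘RCF2’ and 4.74, 4.31 and 5.12 FPKM in ‘CF2’ (log2 fold change 1.55 ± 0.15, adjusted P = 0.0044), and PCP012510, of the typical subtype, stood at 5.56, 7.11 and 6.41 FPKM in ‘RCF2’ and 2.00, 2.09 and 2.11 FPKM in ‘CF2’ (1.26 ± 0.10). RPW8 is a domain first described in powdery mildew resistance of Arabidopsis. Of the tested genes that carry it 13.3% were called, against 1.07% of all genes tested. Of 15 tested RPW8 genes 13 were above 0, the median was 0.56 and 2 were higher, PCP019105 (1.07, 0.90 without ‘RCF2’ replicate 2) and PCP005817 (1.06, with adjusted P up to 0.085 when 1 library was left out and the call lost in 4 of the 6 fits, those without either of the first 2 replicates of each group). Of 1094 tested protein kinases 9 were higher and 1 was lower, which is 0.914%, near the 1.07% of all genes tested, and the median was 0.02. DUF581 genes belong to a zinc-finger family whose Arabidopsis members bind the energy-sensing kinase SnRK1. Of 20 tested 3 were higher (15.0% called). Among them were PCP031308, at 342, 267 and 267 FPKM in ‘RCF2’ and 150, 122 and 116 FPKM in ‘CF2’ (1.17 ± 0.13), and PCP022159 (1.22).

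Several of the largest differences lay outside any of these groups. The strictosidine synthase-like gene PCP001765, of a family named for alkaloid synthesis, stood at 22.0, 15.6 and 19.9 FPKM in ‘RCF2’, against 1.72, 1.78 and 1.44 FPKM in ‘CF2’ (log2 fold change 2.92 ± 0.13, adjusted P = 0.00029). The malate channel-type gene PCP007579 stood at 21.5, 33.8 and 18.6 FPKM in ‘RCF2’ and 1.95, 3.31 and 7.03 FPKM in ‘CF2’ (2.41 ± 0.37), and its call was lost without ‘RCF2’ replicate 1 (adjusted P = 0.052). Genes for which the table names no domain made up 55 of the 274. PCP028377 stood at 80.5, 68.6 and 67.8 FPKM in ‘RCF2’ and 9.31, 9.10 and 7.19 FPKM in ‘CF2’ (2.95 ± 0.11), and PCP026519 (2.84) and PCP012557 (2.62) were similarly raised. PCP033935 was listed at 0 in all 3 ‘RCF2’ libraries and stood at 2.74, 3.06 and 3.13 FPKM in ‘CF2’ (adjusted P = 0.00021). PCP011584 was the most abundant gene of all that passed, with a mean of 592 FPKM in ‘RCF2’ and 1507 FPKM in ‘CF2’ (-1.34 ± 0.11, adjusted P = 0.0027). Lower genes with a named domain included the Tic20-like PCP042248, of a family of plastid import proteins, at 0.307, 0.307 and 0.233 FPKM in ‘RCF2’ and 4.87, 2.62 and 4.86 FPKM in ‘CF2’ (-1.96 ± 0.19), and the DUF4408 gene PCP037547, at 4.82, 3.34 and 6.23 FPKM in ‘RCF2’ and 22.2, 20.9 and 18.2 FPKM in ‘CF2’ (-1.91 ± 0.18).

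The make-up of the sampled skin was followed with marker lists. Of 82 tested genes for photosystem subunits, chlorophyll-binding proteins and the small subunit of RuBisCO, 72 were below 0 and 65 did not overlap between the cultivars (29.9% of all genes tested did not), with a median of -0.38 and a summed level over all 96 genes of the list of 8360 to 9511 FPKM in ‘RCF2’ and 11731 to 13287 FPKM in ‘CF2’. Only 1 of them passed the test, the RuBisCO small subunit gene PCP018436, at 19.6, 23.3 and 20.9 FPKM in ‘RCF2’ and 54.4, 39.0 and 48.3 FPKM in ‘CF2’ (-1.11 ± 0.13), which fell just short of the fold threshold without ‘CF2’ replicate 1. In bulk skin, fewer green cells and less of these RNAs per cell cannot be told apart, and their part in the lower nitrate reductase, expansin, pectin and SAUR genes was not tested. Of 4 skin-layer genes (WIN1, both SHINE2 entries and GLABRA2) none passed the limma test and 2 had an unadjusted P under 0.05. Their summed level was 62.2 to 78.7 FPKM in ‘RCF2’ and 86.8 to 97.2 FPKM in ‘CF2’. Lipid transfer proteins, also a skin list, had 26 of 37 tested below 0 and 1 lower gene. Their sums did not overlap, at 9971 to 12366 FPKM in ‘RCF2’ and 12394 to 13630 FPKM in ‘CF2’. GDSL lipases (2970 to 3685 and 3418 to 3825 FPKM) and wax and cuticle enzymes (324 to 369 and 364 to 407 FPKM) overlapped, with none called. Markers of lignified tissue did not move together. The summed level of 88 laccases and other multicopper oxidases, a class whose laccases polymerise lignin, was 575 to 697 FPKM in ‘RCF2’ and 458 to 547 FPKM in ‘CF2’. That of 22 cellulose synthases overlapped, at 108 to 120 FPKM in ‘RCF2’ and 114 to 121 FPKM in ‘CF2’. Of the 12 tested, 9 were below 0 and none passed the limma test (5 had an unadjusted P under 0.05). NAC66, the third such marker, was lower in ‘RCF2’ (-1.17). Lists of dividing cells did not all behave alike. The summed level of 109 core histones was 6784 to 7460 FPKM in ‘RCF2’ and 7933 to 8237 FPKM in ‘CF2’, which did not overlap. That of 181 kinesin, cyclin and other cell division genes was 1924 to 2011 FPKM in ‘RCF2’ and 1965 to 2076 FPKM in ‘CF2’, which overlapped, with 64 of the 147 tested above 0, a median of -0.03 and 1 higher gene. Tubulins overlapped too, at 2771 to 2937 FPKM in ‘RCF2’ and 2850 to 3077 FPKM in ‘CF2’. None of the 33 tested multicopper oxidases, 87 histones or 30 tubulins passed the limma test, with 10, 34 and 3 at an unadjusted P under 0.05, against 24.4% of all genes tested. Likewise no pollen allergen (28 tested, 9 at an unadjusted P under 0.05) and no MADS-box gene (35 tested, 4) passed.

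The libraries taken 3 days earlier share none with those above, and show how far the differences were already present, although whether both stages came from the same trees is not stated. At 2 DAFB only 6 genes passed between ‘RCF1’ and ‘CF1’, 0.0233% of those tested, and ‘CF1’ replicate 3 stood apart from its group (r of 0.844 and 0.911). Without that library 102 genes passed, 0.397%. Of the 188 genes higher in ‘RCF2’, 151 (80.3%) had a log2 fold change above 0 at 2 DAFB, against 62.3% of all genes tested, and 128 (68.1%, against 55.4%) without ‘CF1’ replicate 3. Of the 86 lower genes, 62 (72.1%) were below 0 at 2 DAFB, against 37.7% of all genes tested, and 79 (91.9%, against 44.6%) without that library. The median at 2 DAFB was 0.54 (0.26 without ‘CF1’ replicate 3) for the higher genes and -0.48 (-0.68) for the lower ones. These genes were chosen for their size at 5 DAFB, so their medians at the 2 stages cannot be compared as sizes.

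The values of single genes at both stages, for genes chosen from those called at 5 DAFB, were as follows. GSTF12 (5.04 at 2 DAFB, 4.49 at 5 DAFB), the hypoxia-induced PCP032922 (3.33 and 1.95), PCP011372 (2.84 and 2.46), PCP001765 (2.33 and 2.92) and PCP045155 (1.64 and 2.04) already had log2 fold changes above 1 at 2 DAFB. Without ‘CF1’ replicate 3 their values at 2 DAFB were 4.85, 3.40, 2.65, 2.06 and 1.70. The LOB gene PCP024388 (0.48 at 2 DAFB, 2.78 at 5 DAFB), the wound-induced PCP016595 (0.35 and 3.0) and the nitrate reductase PCP024822 (-0.91 and -2.65) had smaller values at 2 DAFB. Without ‘CF1’ replicate 3 they stood at 0.77, 0.71 and -1.25 there. PCP016595 does not stand for its family, whose 15 tested genes had a median of 0.98 at 2 DAFB with all libraries. Of the 15, 13 were above 0 there (62.3% of all genes tested were). The expansin PCP003346 stood at 1.56 at 2 DAFB, but at -0.50 without ‘CF1’ replicate 3, and at -1.59 at 5 DAFB. None of these changes between stages passed the test of the difference itself. Over all genes that limma interaction fit called 0 genes, with a smallest adjusted P of 0.0594 and 4061 genes at an unadjusted P under 0.05, of which 132 were among the 274. Without ‘CF1’ replicate 3 it called 160 genes, 39 of them among the 274.

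**Figure D5:**
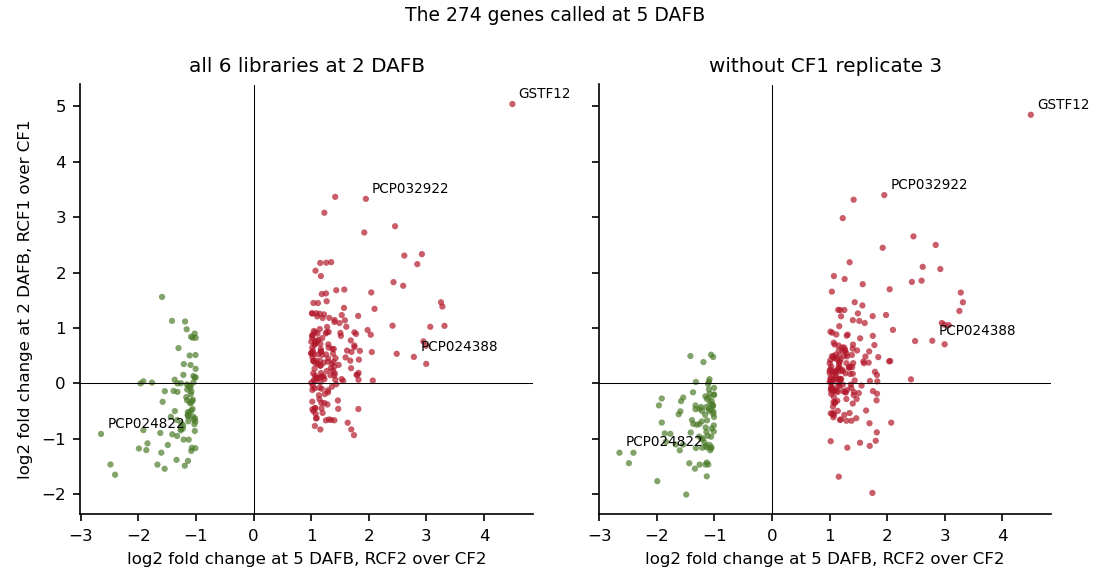
Log2 fold change at 5 DAFB, ‘RCF2’ over ‘CF2’ (horizontal axis), against that at 2 DAFB, ‘RCF1’ over ‘CF1’ (vertical axis), for the 274 genes called at 5 DAFB, with all libraries (left) and without ‘CF1’ replicate 3 (right). Most red points (higher in ‘RCF2’) lie above the horizontal zero line, most green points (lower) lie below it, and GSTF12 stands at the upper right in both panels.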

How the data were processed

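The 6 skin libraries of ‘RCF2’ and ‘CF2’ were compared, with the 6 of ‘RCF1’ and ‘CF1’ as a second stage. Per the labels the deposited values are FPKM, computed by the authors. The submitters’ processing notes name Trimmomatic 0.38, HISAT2 2.1.0, StringTie 1.3.4d and DESeq2. An apple genome is named as mapping reference in the paper, and the build behind the scaffolds of the table is not given in the sources used here. Counts were not used here, so DESeq was not run, and relative depth was read from the smallest steps of low FPKM.

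log2(FPKM + 1) was fitted with limma 3.58.1 in R 4.3.3 (lmFit, then eBayes with trend, two-sided) on the 6 libraries of a stage, and the interaction on all 12. The script was tested on simulated data. Tables were read with Python 3.11.15 and pandas 2.3.3, and figures drawn with matplotlib 3.10.9. Fold changes on this scale understate those of low genes. Families are genes that share a domain name, which 12125 genes lack. Named are the 12 largest and 12 smallest called differences, genes the paper names, and up to 4 called members and the most abundant member of each of 58 lists and of families with at least 3 called members. Not all are printed, and further members of these families were named after their values were seen. The members and lists were chosen with earlier results of these data known. Alternatives were quantile normalization, TPM in place of FPKM, a pseudocount of 0.1, an FPKM filter of 10 or none, a replicate block, 1 joint fit of the 12 libraries, the unadjusted P, and leaving out each library in turn.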

Additional observations from a re-analysis of the deposited data

Results flagged for a closer look

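In 3 of the 114 genes named or followed here all ‘RCF’ libraries stood on one side of ‘CF’ at 5 DAFB and on the other side at 2 DAFB, as they did in 574 of all genes tested (2.23%). CHS (PCP023048) stood at 39.5, 35.0 and 35.8 FPKM in ‘RCF2’ against 16.8, 30.7 and 18.7 FPKM in ‘CF2’, and at 0.750, 2.16 and 1.48 FPKM in ‘RCF1’ against 7.27, 11.2 and 14.3 FPKM in ‘CF1’, a change of 3.03 on the log2 scale between stages (limma interaction, adjusted P = 0.059). The RPW8 gene PCP005817 stood at 45.6 to 73.2 FPKM in ‘RCF2’ against 21.1 to 34.3 FPKM in ‘CF2’, and at 26.8 to 37.7 FPKM in ‘RCF1’ against 46.9 to 77.9 FPKM in ‘CF1’, a change of 1.83 (adjusted P = 0.097). The phosphate-induced protein 1 gene PCP019982 stood at 272 to 310 FPKM in ‘RCF2’ against 345 to 371 FPKM in ‘CF2’, and at 251 to 403 FPKM in ‘RCF1’ against 47.9 to 236 FPKM in ‘CF1’, a change of -1.49 (adjusted P = 0.32). None passed the adjusted threshold, and the lowest ‘CF1’ value of PCP019982 and the highest of the other 2 genes were those of ‘CF1’ replicate 3.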

How the results depend on the processing

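The number of genes called between ‘RCF2’ and ‘CF2’, 274 with 188 higher and 86 lower, moved by over 1.5 times under 3 settings that kept all 6 libraries, and without ‘CF2’ replicate 1 (172) or ‘RCF2’ replicate 1 (174). It was 467 (289 higher, 178 lower) with a pseudocount of 0.1, 118 (68 and 50) without a filter on low FPKM and 111 (88 and 23) in 1 fit of all 12 libraries. A filter at an FPKM of 10 gave 210 calls, 56 of them lower. Rescaling to TPM gave 363, quantile normalization 275 and the unadjusted P 324. Leaving out 1 library gave 172 to 374 calls, 97 to 288 higher and 57 to 86 lower, with the most without ‘CF2’ replicate 3. Of the 274 genes, 114 were called in all 6 such fits, and 65 of the 105 named called genes were. Of the named called genes, 49 lost their call in the fit of all 12 libraries and 43 without the filter, against 5 with the replicate block, 1 with the pseudocount of 0.1 and 0 after quantile normalization. No called gene changed sign under any setting, and the cause of the differing counts was not tested. The interaction called 1 gene with a pseudocount of 0.1, 2 with the filter at 10, 44 after quantile normalization, and 0 to 1809 when 1 library was left out, the highest without ‘CF1’ replicate 2. The replicate block gave 255 calls, and the deviations of same-numbered libraries correlated at 0.145, 0.203 and 0.048, against -0.181 to 0.056 for other pairs. As 1 of the 3 was under 0.1, and as no label says that a number marks a shared tree or batch, the numbers were not taken to pair the samples, and ‘RCF2’ replicate 3 did not correlate best with its own number. Without read counts no interval was set on values below about 1 FPKM.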

Other observations

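Some domain groups picked out after their values were seen lay mostly on one side of 0 with few or no called genes. Of 12 tested carotenoid oxygenases, enzymes that cleave carotenoids, 11 were below 0 with a median log2 fold change of -0.36, none passed the limma test and 9 had an unadjusted P under 0.05 (24.4% of all genes tested did). Of 17 terpenoid synthases 12 were above 0 with a median of 0.38, again with none called and 10 at an unadjusted P under 0.05. Of 16 genes of the leucine-rich repeat 3 type 15 were above 0 with a median of 0.54, none called and 11 at an unadjusted P under 0.05.

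Among the 84 tested oxoglutarate and iron-dependent oxygenases, the class that holds ANS and F3H, PCP013133 stood at 2.07, 1.54 and 1.92 FPKM in ‘RCF2’ and 0.0735, 0.0727 and 0.0381 FPKM in ‘CF2’ (1.42 ± 0.10), with a log2 fold change of 3.37 at 2 DAFB. The peroxidase 57-type gene PCP002531 stood at 13.9, 12.2 and 10.9 FPKM in ‘RCF2’ and 5.86, 3.48 and 5.31 FPKM in ‘CF2’ (1.20 ± 0.17). PCP016609, with a galactose oxidase-type propeller, stood at 2.59, 1.55 and 2.62 FPKM in ‘RCF2’ and 10.2, 7.23 and 9.42 FPKM in ‘CF2’ (-1.62 ± 0.17). Of the 274 called genes, 26 lay in 12 runs of close neighbours on a scaffold, and in 9 of these runs all members moved in 1 direction. In 5 of the 9 the members also shared 1 domain name. Most called genes were higher (188 of 274), and whether neighbours shared a direction more often than other called genes was not tested.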
